A study of Mus musculus with 12 samples.

Results

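The RNA that confluent, hormone-free 3T3-L1 preadipocytes held on polysomes was compared with the RNA that they held off polysomes. 3T3-L1 is an established line of mouse embryonic fibroblasts that turns into fat cells under a hormone mixture. Of the 12 one-color Agilent arrays of the study, the 6 arrays taken at 0 h were chosen, 3 of the polysomal pool (gradient fractions 9 to 11) and 3 of the non-polysomal pool (fractions 5 to 7), with 41174 non-control probes on each array. Both pools came from untreated cells in DMEM with newborn bovine serum, HEPES and antibiotics, which had been grown to confluence and received neither isobutylmethylxanthine nor dexamethasone nor insulin. The cells were broken open in a buffer with cycloheximide, a drug that holds ribosomes on the mRNA, and the lysate was run into a sucrose gradient of which 13 fractions were taken. Fraction 8 and the outermost fractions were in neither pool, so the values compare both pools only and give no share of an mRNA in the whole cell. The other 6 arrays hold the same pools 6 h after 0.5 mM isobutylmethylxanthine, 1 µM dexamethasone and 5 µg/ml insulin. This mixture was given in fresh medium with fetal in place of newborn bovine serum, so hormones and serum cannot be told apart in a change between both times. The 6 h arrays share the estimate of the spread, and are used beyond that for this change. All groups are of this single cell line, and as bulk samples they cannot tell fewer cells of a type from less RNA per cell. The replicates are numbered samples of one group, and p-values measure only the spread between them.

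A translated mRNA is read by several ribosomes at once and sinks far into a sucrose gradient as a polysome, while an mRNA with no or few ribosomes stays near the ribosomal subunits and the single ribosome. An mRNA with a short reading frame has room for few ribosomes only, and a noncoding RNA usually carries none. The mRNAs of ribosomal proteins and of several translation factors begin with a terminal oligopyrimidine (TOP) tract, a C followed by further pyrimidines, and leave polysomes in cells that do not grow, when signalling through the kinase mTOR is low. Confluent preadipocytes are arrested before they are induced.

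The arrays differed little within a fraction. Over the 21430 probes well above background on all 6 arrays, the correlation of log2 signals ranged from 0.996 to 0.997 within the non-polysomal group and from 0.996 to 0.998 within the polysomal group, against 0.882 to 0.888 between the fractions. The 75th percentile of the signal ranged from 241 to 269 off polysomes and from 449 to 514 on polysomes, after labelling of 600 ng RNA for each pool. All 16 markers of preadipocytes and fibroblasts on the array were detected, that is, well above background on all 3 arrays of at least 1 fraction. Of the leukocyte markers 5 of 9 passed this mark, with a summed signal of 624 to 684 off polysomes and 1177 to 1401 on polysomes, but the defining markers Ptprc, Adgre1 and Itgam did not pass. Endothelial markers passed in 2 of 8 cases, with summed signals of 122 to 165 and 157 to 180 and without Pecam1 and Cdh5. Epithelial markers passed in 4 of 8 cases, with summed signals of 160 to 193 and 102 to 135 and without Epcam and Cdh1. The summed signal of the preadipocyte markers was 675592 to 703801 in the non-polysomal pool. Each sum of this kind covers all markers of a list that are on the array, detected or not. The mark is generous for dim probes, since 238 of 884 olfactory receptor genes passed it too. Of the 16 mature adipocyte markers on the array 12 were detected, Adipoq and Lpl among them, with summed signals of 32464 to 34097 and 97223 to 114693; Lep, Retn, Cfd and Slc2a4 were not detected.

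Most detected RNAs had a stronger signal in the polysomal pool. A probe was called higher in the polysomal pool at a log2 difference (polysomal minus non-polysomal) above 1 and lower at one below -1, each with an adjusted p below 0.05. On this basis 11257 probes were higher (27.4% of those tested) and 4039 were lower (9.81%). Of the 18212 genes with a symbol, each taken by its brightest probe, 13177 were detected, and 6160 of these were higher (46.7%) and 1528 lower (11.6%). The median difference over all detected genes was 0.89 on the log2 scale, so a gene class is read below against this median as well as against 0. Over probes above background on all 6 arrays the median difference was 0.81, 0.87 and 0.91 in the replicates (0.87 ± 0.05, SD, n = 3), a 1.82-fold stronger polysomal signal. The range was wide: the 1st and 99th percentiles of these probes lay at -3.14 and 3.07, and the median SD within a group was 0.09 in the non-polysomal and 0.13 in the polysomal pool. The sign of the difference was the same in all 3 replicate numbers for 11185 of the probes called higher and 3961 of those called lower. The values of both pools did not overlap in 11379 of the detected genes (86.4%), so a lack of overlap does not set a gene apart. Among 4663 genes with several detected probes, 54 had probes called in opposite directions.

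**Figure D1:**
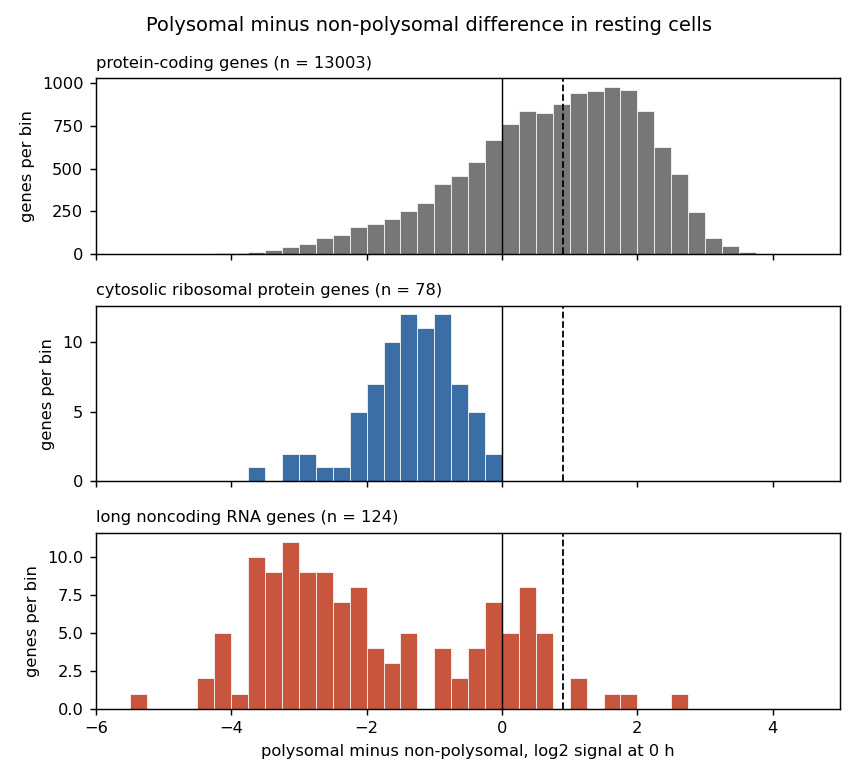
Number of detected genes in bins of 0.25 of the log2 difference, polysomal minus non-polysomal, at 0 h, for all protein-coding genes, for the cytosolic ribosomal protein genes and for the lncRNA genes, each with its own vertical axis; the solid line marks 0 and the dashed line the median of all detected genes (0.89). The 78 ribosomal protein genes lie below 0, and 84 of the 124 lncRNA genes were lower, whereas the protein-coding genes centre at 0.92.

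The sign of small differences rested on the scaling. The signals were scaled by 10 spike-in RNAs added to each pool, each measured by 32 spots, and between the fractions at 0 h these differed by -0.06 to 0.21 on the log2 scale before scaling. Equal RNA was labelled for each pool, so the signals are per labelled RNA and not per cell. By this scaling 73.6% of the calls were higher. With scaling to the 75th percentile, which sets the bulk of both pools equal, 30.1% of the calls were higher, with quantile normalization 54.5%, and with scaling to the median 29.7%. No probe called one way was called the other way under any setting. With the 75th percentile, the median or no scaling it could not be otherwise. These move all differences by nearly the same amount, which is less than the gap between both limits. The 75th percentile moves them downward, so all 4039 probes called lower kept their fold and were also lower. Of the 11257 called higher 4752 were also higher. In 24 cases a gene list had no gene called in one direction by limma, and in 0 of them did a gene pass an unadjusted p of 0.05 with the same fold limit. Genes with a difference between 0 and about 0.9 change sign with the scaling. Of the detected genes 2726 were higher and 3296 lower with the 75th percentile, so the counts of a gene class move with it as well, and they are given under both where their order turns.

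**Figure D2:**
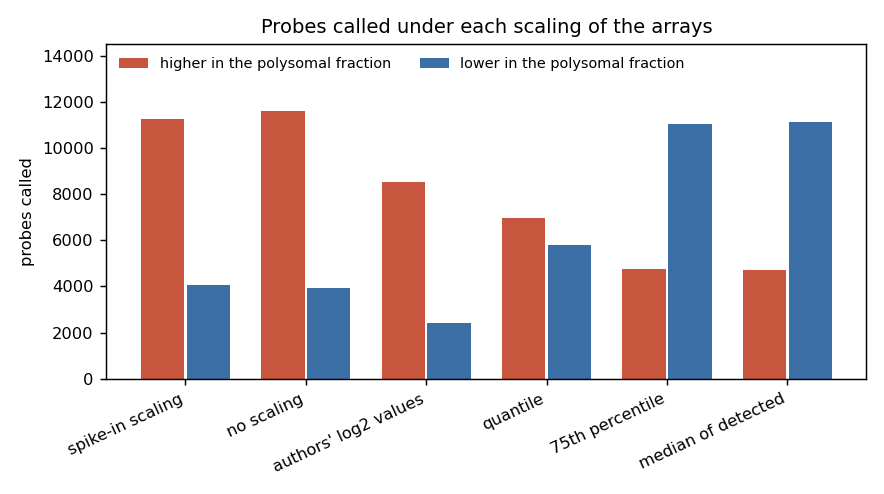
Number of probes called higher (red bars) and lower (blue bars) in the polysomal pool at 0 h under the spike-in scaling and under each of 5 alternatives. The higher calls outnumber the lower ones with the spike-ins (11257 against 4039) and with quantile normalization (6949 against 5807), and the order turns with the 75th percentile (4752 against 11033) and the median (4700 against 11137).

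Among the RNAs with the largest differences toward polysomes were mRNAs of DNA replication, RNA handling, protein synthesis and secretion. Mcm3, a subunit of the replicative helicase, had log2 signals of 5.82, 5.75 and 5.69 in the non-polysomal pool and of 9.69, 10.01 and 9.72 in the polysomal pool. The ranges were far apart, with a difference of 4.05 ± 0.10 (SE; limma, adjusted p = 1.41e-09), or 16.6-fold. Sdha, the catalytic subunit of succinate dehydrogenase, rose from 7.05, 7.15 and 7.03 in the non-polysomal to 10.52, 10.70 and 10.70 in the polysomal arrays (3.56 ± 0.08). All polysomal values of these genes stood above all non-polysomal ones. Among the 12 highest genes were also Shq1, an assembly factor of small nucleolar particles (3.73), App, the amyloid precursor protein (3.69), Rars, the arginyl-tRNA synthetase (3.67), C1rb, a protease of the complement system (3.66), Hspa1b, an inducible Hsp70 (3.64), Pla2g7, a secreted phospholipase (3.63), Maged2 (3.61), P3h1, which hydroxylates collagen (3.60), and Gfm1, the elongation factor G of mitochondria (3.59).

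At the other end stood noncoding RNAs and the mRNAs of several small proteins. Dnm3os, a long noncoding RNA, had log2 signals of 9.26, 9.25 and 9.22 in the non-polysomal pool and of 3.54, 4.04 and 4.10 in the polysomal pool. This was the largest decrease (-5.35 ± 0.19, adjusted p = 4.4e-09), or 40.7-fold. Malat1, a nuclear noncoding RNA, measured 14.03, 14.04 and 14.02 against 9.34, 9.72 and 9.65 (-4.46 ± 0.12), and its other 3 probes gave -4.13, -3.68 and -3.64. Selenow, a small selenoprotein, was at 14.41, 14.38 and 14.49 off polysomes and at 9.90, 10.24 and 10.14 on polysomes (-4.33 ± 0.11). Tmsb10, an actin-binding peptide of the thymosin family, was at 14.73, 14.85 and 14.76 against 10.55, 10.72 and 10.56 (-4.17 ± 0.07). For each of these RNAs the lowest non-polysomal value was above the highest polysomal one. The others among the 12 lowest genes were Smco4, a small membrane protein (-4.52), Snhg7, a host of small nucleolar RNAs (-4.20), the small nucleolar RNA Snord123 (-4.20), Vegfb, a growth factor (-4.18), the noncoding RNAs 1110038B12Rik (-4.12) and Gm10941 (-4.10), Ost4, the smallest subunit of the oligosaccharyltransferase (-4.05), and Cox17, a copper chaperone of cytochrome c oxidase (-4.00).

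**Figure D3:**
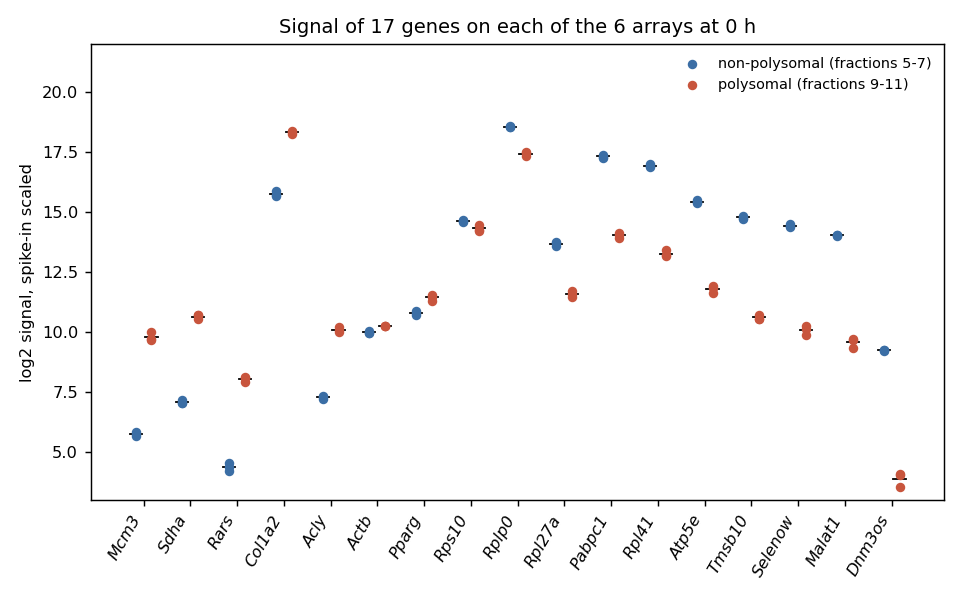
Log2 signal, spike-in scaled, of 17 named genes on each of the 3 non-polysomal (blue) and 3 polysomal (red) arrays at 0 h; every point is one array and a short line marks the mean. The fractions are to be compared within a gene, not between genes; Mcm3 lies at 5.69 to 5.82 and 9.69 to 10.01, while Rps10 lies close together at 14.60 to 14.66 and 14.23 to 14.45.

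The mRNAs of cytosolic ribosomal proteins lay off polysomes as a class. Of 78 detected ribosomal protein genes 52 were lower in the polysomal pool and 0 were higher, and all 78 had a difference below 0 (median -1.28, against 0.89 for all detected genes). Of the 47 proteins of the large subunit 30 were lower (median -1.30), and of the 31 of the small subunit 22 (median -1.25). With scaling to the 75th percentile all 78 were lower. Rpl41, the smallest ribosomal protein, had log2 signals of 16.90, 16.98 and 16.91 off polysomes and of 13.18, 13.41 and 13.23 on polysomes, the lowest difference in the large subunit (-3.66 ± 0.08, adjusted p = 1.28e-09). Rps29 was the lowest of the small subunit (16.23, 16.26 and 16.29 against 12.93, 13.11 and 13.04; -3.24 ± 0.08), followed by Rps28 (-3.15) and Rps27 (-2.93). Rplp0, the stalk protein often used as a reference in q-PCR, fell from 18.54, 18.56 and 18.53 to 17.33, 17.52 and 17.46 (-1.11 ± 0.07, adjusted p = 1.35e-07). Its other probe gave -2.02 ± 0.09, so the size of this difference depends on the probe. The members did not behave as one block. Rpl15 measured 14.94, 15.01 and 14.95 off and 14.73, 14.92 and 14.73 on polysomes. These ranges adjoin without overlap, and the difference of -0.17 ± 0.08 missed the threshold (adjusted p = 0.109). Rpl19 (-0.23), Rpl7a (-0.27) and Rps10 (-0.30) also had small differences. Transcripts of ribosomal protein genes resemble those of many pseudogenes, and binding of these to the probes was not tested.

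The annotated start of these genes was read from the RefSeq promoter table (GRCm38.p6), to see whether the spread within the class followed the pyrimidine tract. A window of 25 bases holds 10 bases before the annotated start and 15 bases from it on, written 5′ to 3′ on the strand of the gene, and capitals mark the run of C and T that begins with a C at the start. The first 5 are ribosomal protein genes called lower, the next 2 are those with the same kind of start whose difference was small, and the last 2 are Rpl41, the lowest, and Mcm3, the highest of the genes called and above background on all 6 arrays, with no such run.
Rps27 (chr3:90213634-90213658, minus strand): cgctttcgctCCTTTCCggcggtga
Rps21 (chr2:180257369-180257393, plus strand): aggacccgccCTCCTgcccaatagt
Rpl28 (chr7:4792955-4792979, plus strand): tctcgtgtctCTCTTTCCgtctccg
Rpl38 (chr11:114668570-114668594, plus strand): aagcctcgttCTTTCCCCgttctct
Fau (chr19:6057937-6057961, plus strand): gcccccacttCTTCCTCTTTCTTga
Rps10 (chr17:27635230-27635254, minus strand): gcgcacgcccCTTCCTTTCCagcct
Rpl15 (chr14:18270972-18270996, minus strand): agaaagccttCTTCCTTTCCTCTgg
Rpl41 (chr10:128549154-128549178, minus strand): gggccggctcggaagtgacgacacc
Mcm3 (chr1:20820298-20820322, minus strand): ccatgcttcctccaccataaacttc
The differences of Rps27, Rps21, Rpl28, Rpl38 and Fau were -2.93, -2.79, -2.19, -1.97 and -1.31, so a short run of 5 bases (Rps21) went with a larger difference than the run of 13 bases of Fau or of Rpl15. A C followed by at least 4 C or T, on the strand of the gene and exactly at the start, was found in 14 of 58 ribosomal protein genes with an entry (24.1%) and in 813 of all 27025 promoters (3.01%). The 14 genes with this start had a median difference of -1.35 and 9 of them were lower. The 44 without it had a median of -1.22 and 28 of them were lower, and of the 20 without an entry 15 were lower. Annotated starts can lie some bases from the true one: with a run of this kind anywhere from 5 bases before to the first 10 bases of the transcript, 28 of the 58 genes held it, against 21.2% of all promoters.

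Other TOP mRNAs lay between the ribosomal proteins and the bulk. Of 18 detected members of a list of known TOP mRNAs outside the ribosome 7 were lower and 0 higher (median -0.83). Pabpc1, the poly(A)-binding protein, had the lowest value of the list, with 17.27, 17.31 and 17.38 off polysomes and 13.93, 14.13 and 14.05 on polysomes (-3.28 ± 0.08, adjusted p = 1.41e-09). Eif4b, a cofactor of the helicase that unwinds mRNA at initiation, was at 13.26, 13.40 and 13.32 against 11.10, 11.26 and 11.11 (-2.17 ± 0.07), and its other probes gave -1.70 and -1.76. All polysomal values of both genes were below all non-polysomal ones. The elongation factor Eef2 (-2.10), Tpt1 (-2.07), Eef1b2 (-1.48), Eif3f (-1.29) and Eef1a1 (-1.24) were lower as well. Vim, Npm1, Hnrnpa1 and Naca had values between -0.02 and 0.02, and Eef1d had the highest value of the list (0.74; -0.15 with the 75th percentile). The 3 detected host RNAs of small nucleolar RNAs with a TOP start were lower. These were Snhg3 (-3.70), Snhg17 (-3.33) and Snhg8, which was not above background on any polysomal array, so that only a bound of at least 15.7-fold can be given.

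In the rest of the machinery of protein synthesis more genes were higher than lower, an order that turned with the 75th percentile for initiation factors and mitochondrial ribosomal proteins. Of 21 aminoacyl-tRNA synthetases and their cofactors, which charge tRNAs, 19 were higher and 0 lower (median 2.52), from Rars, with log2 signals of 4.57, 4.20 and 4.37 off and 7.92, 8.12 and 8.10 on polysomes (3.67 ± 0.11), down to Farsb (1.35). Aimp1 (0.70) and Qars were the exceptions; Qars was at 13.67, 13.99 and 13.85 off and 13.15, 13.36 and 13.31 on polysomes (-0.56 ± 0.09). Of 46 initiation factors and their regulators 24 were higher and 7 lower (median 1.06), close to the shares of all detected genes (46.7% and 11.6%), and with the 75th percentile 7 were higher and 10 lower. All 8 detected genes of eIF2B subunits and eIF2 kinases were higher (1.37 to 2.23), and the subunits of eIF3 ran from Eif3f (-1.29) to Eif3b, the scaffold (2.61). The 7 lower genes were Eif4ebp2 (-2.37) and Eif4ebp1 (-1.87), which encode repressors of the cap-binding protein, Eif4b (-2.17), Eif1 (-1.87), Eif1b (-1.69), Eif3f (-1.29) and Eif4g2 (-1.06). Of 49 factors of ribosome biogenesis and RNA polymerase I 41 were higher and 3 lower (median 1.93). Rrp1 (3.22) and Ddx10 (3.06), which act in the maturation of ribosomal RNA, had the highest values, and the 3 lower ones were Polr1d, a polymerase subunit (-2.27), Nop10, a small subunit of the pseudouridylation particle (-1.38), and Emg1, a methyltransferase (-1.22). Mitochondrial ribosomal proteins, of which 78 were detected, included 27 higher and 11 lower genes (median 0.41, below the median of all genes); with the 75th percentile 7 were higher and 27 lower (median -0.48). The values ranged from Mrpl33 (-2.54) to Mrps5 (2.71).

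**Figure D4:**
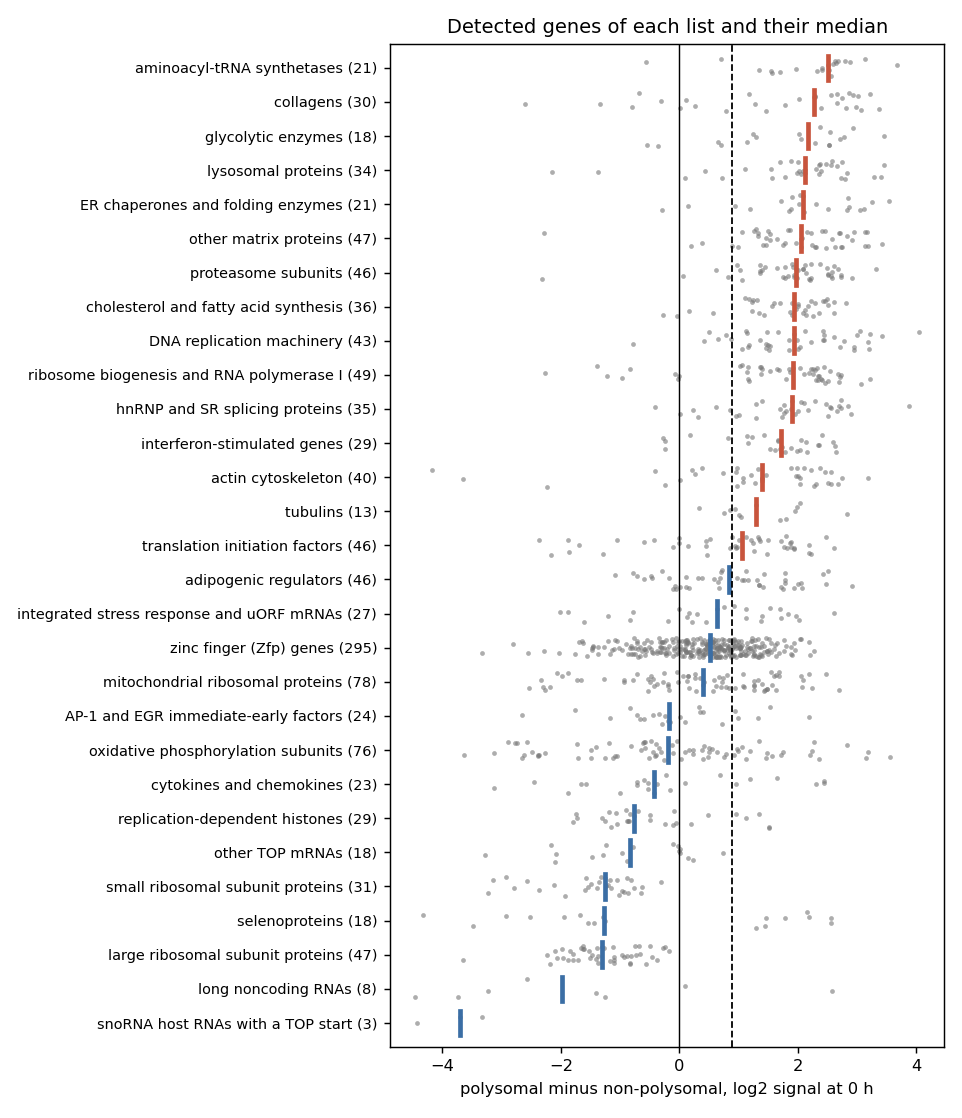
Log2 difference (polysomal minus non-polysomal at 0 h) of the detected genes in each list, one point a gene, with the number of genes in parentheses, a bar at the median of the list (red above and blue below the median of all detected genes), a solid line at 0 and a dashed line at that median (0.89). The ribosomal proteins lie wholly below 0 (-3.66 to -0.17), and the aminoacyl-tRNA synthetases lie above the dashed line except for Aimp1 (0.70) and Qars (-0.56); the medians between 0 and 0.89, from adipogenic regulators to mitochondrial ribosomal proteins, change sign with the 75th percentile. Genes above background in one pool only are drawn at their fitted value.

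Long noncoding RNAs were mostly off polysomes. Of 124 detected genes that RefSeq classes as lncRNA 84 were lower (67.7%, against 11.0% of protein-coding genes) and 5 were higher (4.03% against 47.2%). Their median difference was -2.37. Of the 124 genes, 87 were above background on all 6 arrays, against 12071 of the 13003 detected protein-coding genes. The rest passed the mark for detection in 1 pool without passing on every array of the other. Part of the share called lower thus rests on genes detected through the pool where they were brighter, and the share over the 87 was not computed. The 8 detected genes of a list of well-studied lncRNAs held 6 lower ones: besides Malat1 these were Dleu2 (-3.74), Firre (-3.23), Neat1, the scaffold of paraspeckles (-2.57), Airn (-1.40) and Meg3, which was not above background on any polysomal array and was at least 1.90-fold lower there. Tug1 had a difference of 0.09. Kcnq1ot1, an imprinted antisense RNA, was higher (2.58 ± 0.35, adjusted p = 7.84e-05) but was above background on 1 of the 3 non-polysomal arrays only, and had -0.71 with a normexp correction of the background. The other 4 higher lncRNAs were D430020J02Rik (1.83), Gm11961 (1.74), 4930579K19Rik (1.16) and Phxr4 (1.02). Among 42 transcribed pseudogenes 14 were higher and 14 lower (median 0.05).

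Several families of small proteins, picked after their values had been seen, lay on the side of the noncoding RNAs. The counts below stand against 46.7% higher and 11.6% lower among all detected genes. Of 12 small integral membrane proteins (Smim) 11 were lower and 0 higher (median -2.53), with Smim11 (-3.48) and Smim20 (-3.45) lowest. Of 9 gamma subunits of G proteins 8 were lower (median -2.39), led by Gng5 and Gng10 (both -3.66), and Gng11 was the exception (0.58). The small Tim chaperones of the mitochondrial intermembrane space had 5 lower genes of 6 (median -2.51), the metallothioneins 3 of 4 (Mt1 -2.83, Mt2 -3.01, Mt4 -2.30), and the Ragulator subunits, which tether mTOR to lysosomes, 4 of 5 (median -2.24). Among 20 Sm and Lsm proteins, the rings of the spliceosome and of mRNA decay, 12 were lower and 2 higher (median -1.48), and the higher ones were Snrpb (2.51) and Snrpb2 (1.04). A family of large proteins, the kinesin motors, was chosen in the same way and lay on the other side. The choice fixed this contrast, so no link to protein size is read, and protein length was not analysed. Of 31 kinesins 23 were higher and 0 lower (median 1.74). With the 75th percentile 14 were higher and 2 lower. With a normexp correction on the median pixel 3 were higher and 0 lower (median 0.48).

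Subunits of a complex were often split between the pools. Oxidative phosphorylation genes, 76 of which were detected, comprised 17 higher and 23 lower genes (median -0.19), and 8 higher and 39 lower ones with the 75th percentile (median -1.09). In complex I, 7 of 36 subunits were higher, 8 lower and 21 called neither way. The values ran from Ndufc1 (-2.78) and Ndufa2 (-2.73) to Ndufa9 (2.83) and Ndufs1, an iron-sulfur core subunit (3.19). Of the 4 subunits of succinate dehydrogenase, complex II, 3 were higher, with Sdha on top. In complex III with cytochrome c, 4 of 10 were higher, among them Uqcrc1, a core subunit (3.15), and 4 were lower, among them Uqcr10 (-2.48) and Uqcrh (-2.38). Of the 11 nuclear genes of complex IV 7 were lower (median -1.26), with Cox8a lowest (-3.12), and the highest value, that of Cox4i1, was 0.23. ATP synthase spanned nearly 6 log2 units. Atp5e, its epsilon subunit, had log2 signals of 15.38, 15.52 and 15.42 off and of 11.64, 11.90 and 11.85 on polysomes (-3.64 ± 0.09), while the catalytic head subunits Atp5a1 (2.24) and Atp5b (2.20) were higher.

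**Figure D5:**
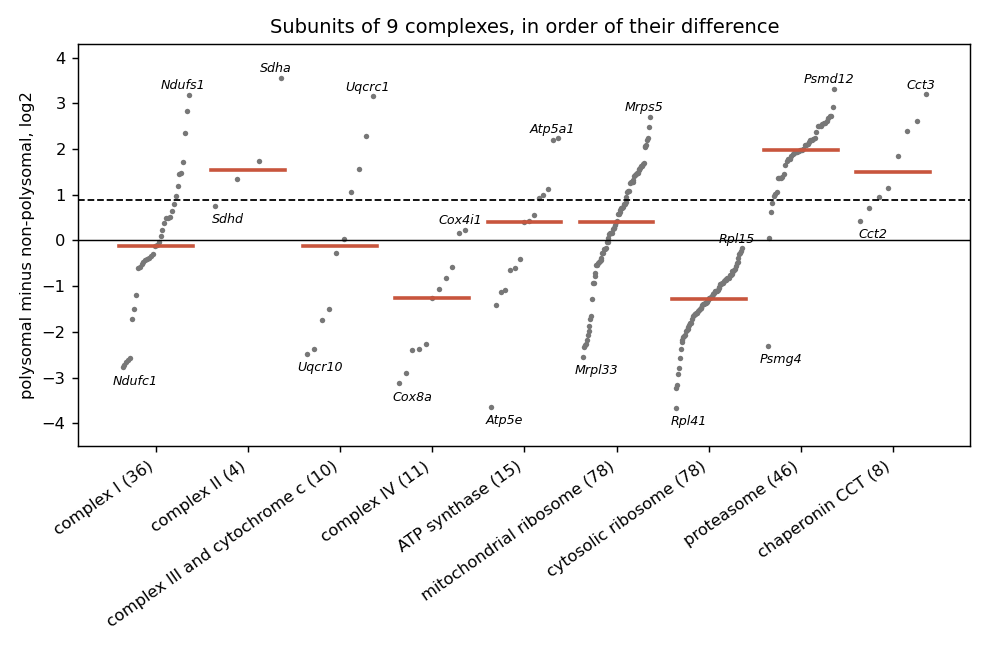
Log2 difference (polysomal minus non-polysomal at 0 h) of the detected nuclear-encoded subunits of 9 complexes, one point a gene in order of its value, with the number of genes in parentheses, the highest and lowest gene labelled, a red bar at the median and a dashed line at the median of all detected genes (0.89). Complex I runs from -2.78 to 3.19, complex IV stays at or below 0.23, and the medians of ATP synthase (0.40) and the mitochondrial ribosome (0.41) lie between 0 and that line, where the sign changes with the scaling.

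The proteasome and the secretory pathway were on polysomes to a large extent. Of all detected genes 46.7% were higher and 11.6% lower. With the 75th percentile 29 proteasome genes were higher and 1 lower, against 14 and 1 for the endoplasmic reticulum and 17 and 5 for collagens. Other matrix proteins then had 26 and 1, matrix proteases and inhibitors 20 and 3, and lysosomal proteins 23 and 2. Of 46 proteasome genes 41 were higher and 1 lower (median 1.98). All 6 ATPases of the regulatory particle (2.10 to 2.92) and 15 of the 17 subunits of the core particle were higher. Psmd12, a lid subunit, was highest (3.32), and Psmg4, a small assembly chaperone, was lower (-2.31). Of 21 chaperones and folding enzymes of the endoplasmic reticulum 18 were higher and 0 lower (median 2.08), among them the disulfide isomerases Pdia5 (3.55) and Pdia6 (3.25), and Hspa5, the main Hsp70 of this organelle (3.12). Manf, a small secreted protein of the same compartment, had -0.30. Collagens were higher in 21 of 30 cases and lower in 2 (median 2.28). Col1a2 of type I collagen was at 15.73, 15.89 and 15.66 off and at 18.32, 18.37 and 18.27 on polysomes (2.56 ± 0.08, adjusted p = 1.79e-09), with all polysomal values above the others; Col5a2 was highest (3.38), and Col4a6 (-2.61) and Col4a4 (-1.33) were lower. The other 2 probes of Col4a6 went the other way, with 0.77 and 0.95, and with the mean of the probes 1 collagen was lower. Other matrix proteins gave 42 higher genes and 1 lower of 47 (median 2.05), from Ecm1 (3.43) and the proteoglycan decorin, Dcn (3.20), to the crosslinking enzyme Loxl2 (-2.29). Matrix proteases and their inhibitors (26 higher and 1 lower of 33, median 2.01) and lysosomal proteins (29 higher and 2 lower of 34, median 2.13) resembled them; Ids (-2.14) and Cln3 (-1.37) were the lower lysosomal genes.

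Chaperones, cytoskeleton and metabolism followed the same side with named exceptions. Of all detected genes 46.7% were higher and 11.6% lower. With the 75th percentile 14 heat shock genes were higher and 5 lower, against 3 and 0 for CCT and 17 and 5 for actin. Tubulins then had 4 and 0, glycolytic genes 11 and 2, and cholesterol and fatty acid synthesis 20 and 1. All 13177 detected genes had 2726 and 3296. Of 29 heat shock proteins and cofactors, most of them cytosolic, 20 were higher (median 1.64), with Hsp90aa1 at 3.15, and 3 were lower: Hspe1, the small mitochondrial partner of Hspd1 (-1.70), Bag1 (-1.27) and Hspb11 (-1.22). Hspa8, the constitutive Hsp70 (0.20), and Hsp90ab1 (-0.09) were not called. The chaperonin CCT had 5 higher subunits of 8 (median 1.49, Cct3 3.20 and Cct2 0.42). In the actin cytoskeleton 27 of 40 genes were higher (median 1.40), led by Fscn1, which bundles actin (3.19); besides Tmsb10 the lower ones were Tmsb4x (-3.66) and Tagln (-2.23), whose other probes disagreed. Actb itself, cytoplasmic beta-actin, was at 9.95, 9.96 and 10.06 off and 10.26, 10.25 and 10.27 on polysomes, a difference of 0.27 ± 0.07 that fell short of the fold limit and was -0.62 with the 75th percentile. Of 13 tubulins 9 were higher (median 1.29), while Tubb5 had 0.34. Glycolytic genes were higher in 14 of 18 cases and lower in 0 (median 2.17; Pfkl 3.47, Aldoc -0.55), and genes of cholesterol and fatty acid synthesis in 32 of 36 (median 1.94; Acly, which supplies cytosolic acetyl-CoA, 2.81). Scd1 (0.17) and Insig1 (-0.27) were among the smallest values of the latter.

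Genes of nuclear functions fell on both sides. Of all detected genes 46.7% were higher and 11.6% lower. With the 75th percentile 22 genes of DNA replication were higher and 1 lower, against 18 and 1 for the splicing proteins. Of 43 genes of DNA replication 37 were higher and 0 lower (median 1.93). All 6 subunits of the Mcm2 to Mcm7 helicase were higher (median 3.09), as were Cdc6 (3.42), the nuclease Fen1 (3.21) and the sliding clamp Pcna (2.96). Rpa3, the smallest subunit of the single-strand binding protein, had the lowest value (-0.79). In contrast, the 20 detected core histones were all below 0, with 9 lower and 0 higher (median -0.89; H4c6 -1.79), and of the 9 linker histones 4 were higher (median 0.96; H1f4 and H1f5 both 1.52). Replication-dependent histone mRNAs have no poly(A) tail, and the labelling of such RNA was not tested. The hnRNP and SR splicing proteins gave 28 higher genes of 35 and 0 lower (median 1.90, Syncrip 2.90). RNA polymerase II and Mediator held 16 higher and 8 lower genes of 42 (median 0.51), and 5 higher and 15 lower ones with the 75th percentile (median -0.38). Polr2b, the second largest subunit, was at 3.42, while Polr2l (-2.83), Polr2m (-2.64), Polr2f (-2.05), Polr2i (-1.86), Polr2j (-1.70) and Polr2k (-1.51) were lower. Zinc finger (Zfp) genes were close to but below the bulk, with 71 higher and 24 lower of 295 (median 0.52), and with 8 higher and 73 lower under the 75th percentile (median -0.38).

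Some mRNAs under known translational control were lower on polysomes in these resting cells. Of 12 iron genes 7 were higher and 4 lower (2 and 4 with the 75th percentile). The ferritin mRNAs, which carry an iron-responsive element before the reading frame, were lower (Fth1: 17.58, 17.73 and 17.56 against 15.66, 15.65 and 15.75, a difference of -1.93 ± 0.07; Ftl1: -2.05), as were Slc40a1, the iron exporter (-2.70), and Epas1 (-1.97). Tfrc, the transferrin receptor, whose elements lie behind the reading frame, was higher (5.57, 5.57 and 5.38 against 8.03, 8.15 and 8.16; 2.61 ± 0.08). In both cases the fractions did not overlap. Of 27 mRNAs with upstream open reading frames or a role in the integrated stress response 11 were higher and 4 lower (median 0.63), near the shares of all detected genes (46.7% and 11.6%), and with the 75th percentile 3 were higher and 7 lower (median -0.26). The lower ones were Ddit3 (-2.02), Eif1 (-1.87), Ppp1r15a (-1.60) and Atf5 (-1.20); Atf4 had -0.83. The antizymes Oaz1 (-2.89) and Oaz2 (-2.47), which need a ribosomal frameshift, and Sat1 (-2.14) were the lower polyamine genes, while the synthase Srm (1.56) was higher and the decarboxylase Odc1 had 0.21 (-0.68 with the 75th percentile). By the spike-in scaling selenoproteins were split without a middle group. Of 18, 8 were higher, led by Selenoo (2.57), Txnrd2 (2.56) and Txnrd1 (2.19), a share near the 46.7% of all detected genes. The other 10 were lower, down to Selenow, Selenoh (-3.49), Gpx1 (-2.93) and Gpx4 (-2.51). With the 75th percentile 4 were higher and 10 lower, and with quantile normalization 6 and 10, so that some were then not called.

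Immediate-early and signalling mRNAs were mixed. Among 24 AP-1 and EGR factors and related early genes 3 were higher, namely Ier5 (2.19), Myc and Mcl1 (1.33), and 3 lower, namely Nr4a2 (-2.66), Jund (-1.76) and Fosb (-1.18), with a median of -0.17. With the 75th percentile 1 was higher and 13 were lower. Myc was at 7.92, 7.97 and 7.85 off and at 9.29, 9.52 and 9.51 on polysomes (1.53 ± 0.09, adjusted p = 9.6e-08), without overlap. Interferon-stimulated genes were higher in 24 of 29 cases and lower in 0 (median 1.72), against 46.7% higher among all detected genes. With the 75th percentile 11 were higher and 3 lower (median 0.83), and with a normexp correction on the median pixel 5 were higher (median 0.55). Ifit1, which binds foreign RNA, was at 7.07, 7.28 and 7.07 off and 9.30, 9.58 and 9.58 on polysomes (2.35 ± 0.10). The list of cytokines and chemokines also includes the cyclooxygenase Ptgs1 and the hormone gene Ghrl. It held 5 higher and 5 lower genes of 23 (median -0.42), but 3 and 15 with the 75th percentile. With quantile normalization 4 were higher and 12 lower. Il6 (-2.46), Ccl5 (-1.88), Cxcl1 (-1.66), Ghrl and Tslp (at least 2.42-fold, not above background on any polysomal array) were lower, and Ptgs1 (2.45), Cx3cl1 (2.44), Il33 (2.31), Csf1 (1.65) and Tgfb2 (1.20) were higher. Ghrl, the ghrelin gene, varied more than the others, with 10.40, 10.18 and 11.17 against 9.35, 8.24 and 9.42 (-1.58 ± 0.36, adjusted p = 0.00332), and its second probe was not above background on any of these arrays.

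Most adipogenic regulators on the list were detected before induction. Of 46 detected genes 22 were higher and 1 lower (median 0.84), a share of higher genes near the 46.7% of all detected genes, and with the 75th percentile 8 were higher and 9 lower (median -0.05). Cebpa, which maintains the fat cell state, was at 8.48, 8.50 and 8.35 off and at 10.03, 10.20 and 10.25 on polysomes (1.72 ± 0.09). Pparg, the master regulator of adipogenesis, was at 10.78, 10.89 and 10.70 off and at 11.31, 11.56 and 11.46 on polysomes (0.66 ± 0.09, adjusted p = 8.09e-05; -0.24 with the 75th percentile), so its fractions did not overlap but the fold limit was not reached. Cebpb, an early activator of both, overlapped between the fractions (9.21, 9.55 and 9.32 against 9.51, 9.62 and 9.43; 0.16 ± 0.09, adjusted p = 0.201). Ctnnb1, beta-catenin (2.92), was the highest of the list, Dlk1, the preadipocyte inhibitor, had 2.43, and Cebpg was the lower gene (-1.09). Klf2 depended on the probe: its brighter probe gave -0.59 and its second probe 1.13.

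The other genes that the study assayed by q-PCR or Western blot are given for reference. Rpl27a was lower, with 13.60, 13.72 and 13.75 off and 11.47, 11.60 and 11.71 on polysomes (-2.10 ± 0.09, adjusted p = 1.2e-08). Impdh2, of guanine nucleotide synthesis, was at 11.69, 11.77 and 11.70 against 12.40, 12.54 and 12.55 (0.78 ± 0.07; -0.12 with the 75th percentile), and Ube2k, a ubiquitin-conjugating enzyme, at 12.36, 12.45 and 12.34 against 13.02, 13.21 and 13.22 (0.77 ± 0.08; -0.13). Ucp2, a mitochondrial carrier, was at 9.53, 9.68 and 9.61 against 9.04, 9.24 and 8.99 (-0.51 ± 0.08). Hsf1, the heat shock transcription factor, was at 10.35, 10.50 and 10.41 against 10.75, 11.11 and 10.93 (0.51 ± 0.10; -0.39). In each of these 5 genes the fractions did not overlap, as in 86.4% of all detected genes, but only Rpl27a passed the fold limit.

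Some genes were measured in one pool only. A gene was counted here when its probe was well above background on all 3 arrays of one fraction and on no array of the other; then only a bound can be given, which sets the mean of the bright pool against, for each array, the lowest signal above background or the signal of the probe, whichever was higher. This applied to 156 genes in the polysomal and 152 in the non-polysomal pool, with a bound of at least 2-fold for 89 and 68 of them. Ncstn, a subunit of the gamma-secretase, had log2 signals of 6.48, 6.30 and 6.48 on polysomes and was at least 10.3-fold higher there. Pigg, which modifies lipid anchors (at least 7.02-fold higher), Mars2, the mitochondrial methionyl-tRNA synthetase (at least 6.49-fold), Pdzd2 (at least 5.58-fold) and Naalad2 (at least 5.43-fold) followed. These 5 dim genes changed sign with a normexp correction on the median pixel, to between -0.15 (Ncstn) and -0.49 (Pdzd2). On the non-polysomal side Snhg8, with log2 signals of 7.15, 7.12 and 6.89, was at least 15.7-fold lower in the polysomal pool. The next were Stard6 (at least 6.90-fold lower), Tnnc1 (at least 6.01-fold), the noncoding RNA Mir99ahg (at least 5.56-fold) and the protease Mmp24 (at least 5.45-fold).

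Ordered by their difference, detected genes also differed in the length of their locus. In the lowest of 10 equal groups of genes (differences of -5.35 to -1.20) the median span from start to end of the gene in the genome was 9.82 kb, and it was 21.5 kb in the fifth group and 31.6 kb in the ninth, with 27.1 kb in the highest. The lowest group held 84 of the 124 lncRNAs. The span includes introns and is not the length of the mRNA, and the length of the proteins was not analysed here. Outside the ribosomal proteins, the 293 detected genes with the TOP-like start had a median difference of 0.51 and 16.0% of them were lower, against 0.92 and 11.2% of the 10194 genes without it. These are descriptions over genes, which share arrays and are not independent replicates.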

How the data were processed

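Polysomal and non-polysomal RNA pools of 3T3-L1 cells were measured on one-color arrays with Cy3. Per the file headers, the authors scanned the arrays with Feature Extraction 10.7.1.1, whose deposited intensities per spot include a background-subtracted, detrended signal that is not normalized between arrays. A second deposited table holds log2 values per probe, which the authors made as the log2 median pixel plus a constant per array; it served as an alternative. No genome build is given in the sources used here.

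Here, log2 of the background-subtracted signal was averaged over the spots of a probe without outlier spots, and scaled by the mean of 10 spike-in RNAs. Control spots were left out. Each of the 3 slides holds 4 arrays, that is, 1 of each group; a shared replicate number is a shared slide. One fit with limma 3.58.1 in R 4.3.3 (lmFit, eBayes, 4 groups, 12 arrays; tables read with data.table, version 1.17.8) gave all differences, with Benjamini-Hochberg adjustment over all probes; 16 probes had no fitted difference. Calls needed an absolute log2 difference above 1 and an adjusted p below 0.05. Where an SE stands without a p, the adjusted p of that gene was below 0.05. Symbols came from RefSeq accessions (GRCm38.p6) and matched 26690 probes (64.8%); a gene was taken by the probe with the highest mean over the 6 arrays. The number of arrays limits the precision.

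Named were the 12 highest and 12 lowest genes among those called, above background on all 6 arrays and of the same sign in each replicate number, the highest, lowest and, from 10 genes on, brightest gene of each list, genes that the study assayed or discussed, and the 5 largest bounds in each direction. Some named items are not reported here. Further members of lists and the genes whose starts are printed were chosen after their values were seen. The comparison and the lists were chosen with earlier results of these data known, and 8 lists (Smim, G protein gamma subunits, small Tim chaperones, metallothioneins, Ragulator, Sm and Lsm, kinesins, olfactory receptors) after the values were seen. The steps were tested on simulated data. Alternatives were other scalings, background corrections, filters, probe choices, a replicate block and leaving out arrays.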

Additional observations from a re-analysis of the deposited data

Results flagged for a closer look

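The results of 37 of the 149 named genes stand out because their polysomal minus non-polysomal difference was not the same in the resting cells and 6 h after induction. This was tested by the interaction term of the limma fit, at a change above 1 on the log2 scale in either direction and an adjusted p below 0.05. Over all probes 13.4% passed this limit, a share that includes probes not above background, whereas the named genes were chosen largely among detected genes. The share over detected probes was not computed, so 37 of 149 is not read as an excess. The largest adjusted p among the 37 was 0.0362. Groups of 3 arrays are too small for a test of single outlying arrays.

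The size of these changes and the split of their directions over all probes rested on the spike-in scaling. Over detected probes the median change was 0.49, from a median difference of 0.86 at 0 h to one of 1.30 at 6 h, and the spike-ins alone added 0.50 to every change; with no scaling the median change was -0.01. Of all probes that passed the limit 4981 changed toward polysomes and 541 away (90.2% toward), and of the 37 named genes 32 changed toward (86.5%), close to the split over all probes. With the 75th percentile, one of 4 settings tried here after seeing the data, 1476 probes changed toward and 1489 away, and 17 of the 32 named genes still passed the limit. With quantile normalization 15 of the 32 did, and with no scaling 17. All 5 genes that changed away passed it under these settings and with scaling to the median.

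The 32 genes are listed from the largest change down, apart from those without a measured size, which follow below. The 0 h difference is a term of the change and served to name several of these genes, so no link between both is read. Tubb5 changed by 2.86, Rpl27a by 2.82, Impdh2 and Npm1 by 2.59 each, Qars by 2.54, Hspa8 by 2.29 and Eif3l by 2.16. Rpl27a moved from -2.10 at 0 h to 0.72 at 6 h, and Qars from -0.56 to 1.97. Rpl15 changed by 1.92, Eef1d and Eif4b by 1.88 each, Aldoa by 1.76, Cct2 by 1.74, Rack1 by 1.71, Rps18 by 1.69, Rps10 by 1.62 and Cebpb by 1.54. Of these, Cct2 (0.95) and Rps10 (0.81) missed the limit with quantile normalization. The smaller changes were those of Krt19 (1.31), Rplp0 (1.27), Tuba1a (1.25), B2m (1.12), Rps29 (1.11), Snhg17 (1.08), Vegfb (1.07), Krt5, Fabp4 and Cxcl12 (1.06 each), Cebpa (1.05), Cox6a1 (1.02) and 1110038B12Rik (1.01). None of these 13 passed the limit with the 75th percentile, where they had 0.57 to 0.87, and Fabp4 had -0.0018 with quantile normalization. Rps29, Vegfb and 1110038B12Rik still had differences of -2.13, -3.10 and -3.11 at 6 h.

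The changes of 4 genes have no measured size, since the probe was not above background on any array of at least 1 group. Tslp (fitted change 3.34), Mir99ahg (2.28) and Mmp24 (1.77) were not above background on any polysomal array at 0 h, and Tslp and Ifi47 (-1.59) not on any array at 6 h. Mir99ahg and Mmp24 also missed the adjusted p of 0.05 with the 75th percentile.

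Of the 5 genes that changed away from polysomes, Ifi47 is given above. Ghrl changed by -4.25, from -1.58 at 0 h to -5.83 at 6 h. Ifit1 changed by -2.38, from 2.35 to -0.03, Cxcl10 by -1.59, and Tfrc by -1.20, from 2.61 to 1.41. Ghrl and Cxcl10 were above background on 2 of the 3 polysomal arrays at 6 h.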

How the results depend on the processing

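Against the spike-in scaling, the alternatives changed how many probes were called, and 0 probes called one way were called the other way under any of them. For scalings that shift all probes alike this was fixed in advance. With the 75th percentile, 4752 probes were higher and 11033 lower (median difference -0.029), with scaling to the median 4700 and 11137 (-0.035), and with quantile normalization 6949 were higher (0.22). The log2 table of the authors gave 2393 lower probes (median 0.66), the normexp correction on the median pixel 3514 higher and 1566 lower (-0.11), and the same fitted without spots of non-uniform background 1968 lower (0.54). These last fits, the mean signal being absent, were chosen after seeing the data. With no scaling, a filter on dim probes, outlier spots kept, the 6 arrays at 0 h alone or a prior variance with a trend, the counts stayed within 1.5 times.

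Leaving out a replicate number in both fractions gave 10941 to 11231 higher and 3858 to 4136 lower probes and a median of 0.84 to 0.89, and leaving out a single array 10901 to 11611, 3835 to 4264 and 0.84 to 0.89. With the replicate number as a block, 11264 probes were higher and 4057 lower, of which 11212 and 3998 were also called without it; none of the 149 named genes changed its call. The deviations of same-numbered arrays at 0 h from their group means correlated at -0.10, 0.05 and 0.07, and were highest with their own number for 1 of 3 numbers, so the samples share a number and a slide but are not treated as pairs.

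Named genes changed sign as follows, on the log2 scale. With the 75th percentile these were Actb -0.62, B2m -0.71, Cct2 -0.47, Cebpb -0.74, Eef1d -0.15, Eif3l -0.44, Hsf1 -0.39, Hspa8 -0.69, Impdh2 -0.12, Mrps6 -0.63, Odc1 -0.68, Polr2g -0.017, Pparg -0.24, Tubb5 -0.55 and Ube2k -0.13. With scaling to the median they were Actb -0.63, B2m -0.71, Cct2 -0.48, Cebpb -0.74, Eef1d -0.16, Eif3l -0.45, Hsf1 -0.39, Hspa8 -0.70, Impdh2 -0.13, Mrps6 -0.64, Odc1 -0.69, Polr2g -0.024, Pparg -0.25, Tubb5 -0.56 and Ube2k -0.13. With quantile normalization they were Actb -0.62, Cebpb -0.76, Hsf1 -0.35, Npm1 0.0030, Pparg -0.17 and S100a4 0.022. The mean of the gene's probes turned Csf1r 0.071, Klf2 0.27 and Npm1 0.037. Normexp on the median pixel turned Cebpb -0.19, Ifi47 -0.48, Kcnq1ot1 -0.71, Mars2 -0.45, Naalad2 -0.46, Ncstn -0.15, Npm1 0.026, Pdzd2 -0.49 and Pigg -0.34, and without spots of non-uniform background Krt19 0.0041. With no scaling Npm1 0.019 turned. Without polysomal replicate 1, Krt19 0.046 and Npm1 0.068 turned (Krt19 ranged down to -0.30 with other arrays left out), and without replicate 1 in both fractions Npm1 0.088.

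Medians of lists that changed sign with the 75th percentile were those of RNA polymerase II and Mediator subunits -0.38, adipogenic regulators -0.052, endothelial markers -0.41, integrated stress response and uORF mRNAs -0.26, macrophage and leukocyte markers -0.35, mitochondrial ribosomal proteins -0.48, olfactory receptors -0.84, polyamine and antizyme genes -0.29 and zinc finger (Zfp) genes -0.38. With quantile normalization they were those of RNA polymerase II and Mediator subunits -0.096, endothelial markers -0.021, macrophage and leukocyte markers -0.042, mitochondrial ribosomal proteins -0.23, olfactory receptors -0.29, polyamine and antizyme genes -0.057 and zinc finger (Zfp) genes -0.18. With normexp on the median pixel they were those of mature adipocyte markers -0.22, zinc finger (Zfp) genes -0.51, macrophage and leukocyte markers -0.52, endothelial markers -0.76 and olfactory receptors -1.11. Other lists kept the sign of their median under these 3 settings. Dim genes are the weakest point, since on an array without spot counts the depth is the signal over background. The cause of these changes was not tested beyond the shift that a scaling applies to all probes.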

Other observations

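Resting 3T3-L1 cells already carried RNA of fat cell genes in both pools. Of the 12 detected mature adipocyte markers 7 were higher and 2 lower in the polysomal pool (median 1.25, against 0.89 for all detected genes, of which 46.7% were higher and 11.6% lower). With the 75th percentile 3 were higher and 3 lower (median 0.36), and with a normexp correction on the median pixel the median was -0.22. Lpl, the lipase that adipocytes secrete, had log2 signals of 12.53, 12.69 and 12.54 off and of 15.13, 15.35 and 15.34 on polysomes, without overlap (2.69 ± 0.08). Adipoq, the hormone adiponectin (2.44), the lipase Pnpla2 (1.97), the lipid droplet protein Plin4 (1.80), the hormone-sensitive lipase Lipe (1.51), Dgat2 of triglyceride synthesis (1.31) and the fatty acid binding protein Fabp4 (1.19) were higher, and Gpd1 (-1.74) and Agpat2 (-1.10) were lower. The labels name no other cells in the cultures.

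The preadipocyte markers were more often higher than lower. Of the 16 detected, 10 were higher and 2 lower (median 2.08), against 46.7% and 11.6% of all detected genes. With the 75th percentile 9 were higher and 4 lower (median 1.18). Pdgfra (2.20), Pdgfrb (2.05), the protease Fap (2.11), Fn1 (2.63), Thy1 (1.03) and Dlk1 (2.43) were higher together with the collagens. Twist2 (-1.44) and the surface protein Cd34 (-1.19) were lower, Twist1 had -0.86, and the calcium-binding protein S100a4 had -0.26.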
